A study of Mus musculus with 2 samples.

Results

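The cells described here are basal keratinocytes of the embryonic mouse epidermis that carried abundant *Krt5* and *Krt14* transcripts and no transcript of 3 cell cycle genes. They were taken from 2 single-cell libraries of E17 skin epithelium made with the 10x Genomics 3′ method. A barcode was kept when at least 1800 genes were detected, and each gene was expressed as unique molecular identifiers (UMIs) per 10000 UMIs of the cell. Members were chosen by measured values. *Krt5* and *Krt14* together had to reach 80 per 10000, *Krt1* and *Krt10* together had to stay under 30 per 10000, the follicle genes *Shh*, *Dkk4*, *Lhx2*, *Sox9* and *Krt79* had to be at 0 UMIs, and so did *Mki67*, *Top2a* and *Cdk1*. The rule gave 1032 members among 8024 kept cells, 728 of 4447 in the control and 304 of 3577 in the *Mettl3* cKO library.

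The control (Ctrl) embryo or embryos were C57BL/6 with the genotype Mettl3 fl/+, Rosa16-YFP fl/+, K14Cre as the labels spell it, and the cKO was Mettl3 fl/fl with the same YFP allele and Cre. Both groups thus carry K14Cre, which acts in epidermal progenitors of the embryo, and the control keeps a single intact copy of *Mettl3*. Cells were sorted as YFP-positive, lineage-negative and integrin-positive, so that cells with little surface integrin were selected against. There is 1 library per genotype and the labels do not say whether embryos were pooled. No test between genotypes was therefore possible, and every interval below covers counting error only.

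Basal keratinocytes form the layer of the epidermis that rests on the basement membrane. They build keratin filaments from KRT5 and KRT14, hold to the matrix through hemidesmosomes and integrins, and supply the suprabasal layers, where KRT1 and KRT10 replace the basal keratins. METTL3 is the catalytic subunit of the complex that writes N6-methyladenosine (m6A) into mRNA, and the study compared skin with and without it.

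The label "resting" was checked first and the data went against it. The *Krt5* and *Krt14* counts and the absence of follicle genes follow from the rule, but 42 S phase genes outside it were well represented in members. Their summed level was 2082 CPM (counts of a gene over all UMIs of the summed cells, scaled to 1000000) in Ctrl and 2382 CPM in cKO members. In Krt5/Krt14-high cells that did carry a UMI of *Mki67*, *Top2a* or *Cdk1* the same sum was 3319 and 2864 CPM. In non-cycling *Krt1*/*Krt10* cells it was 826 and 1014 CPM, and in non-cycling follicle cells 2122 and 2143 CPM, near the members. Non-cycling stands here and below only for no UMI of *Mki67*, *Top2a* or *Cdk1*. At least 1 UMI of the DNA replication genes *Pcna*, *Mcm5*, *Rrm2*, *Tyms* or *Hells* was found in 560 of 728 Ctrl members, or 76.9% (95% exact Clopper-Pearson interval 73.7 to 79.9), and in 258 of 304 cKO members, or 84.9% (80.3 to 88.7). The share was 65.1% (56.9 to 72.7) and 61.1% (50.5 to 70.9) in the *Krt1*/*Krt10* cells, which were deeper, with medians of 10241 and 9191 UMIs against 7762 and 7772 in members. Basal cells with a cycle UMI, also deeper, had 92.6% (91.2 to 93.9) in Ctrl and 91.2% (89.1 to 93.1) in cKO. In cells reduced to 5500 UMIs each, the median count of the 42 genes was 10 in Ctrl and 12 in cKO members. It was 4 and 5 in *Krt1*/*Krt10* cells, 9 and 10 in follicle cells and 17 and 14 in basal cells with a cycle UMI. Free RNA itself, read from barcodes of 10 to 100 UMIs, held 2658 and 2474 CPM of these genes. Erythroid genes, which keratinocytes do not make, were at 34.4 and 37.1 CPM in members against 1210 and 623 CPM in free RNA. The members are called here by their rule, and not resting cells.

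The G2 and M phase genes behaved in another way. For 41 such genes outside the rule the summed level was 1504 CPM in Ctrl and 1536 CPM in cKO members, against 6450 and 6676 CPM in the basal cells with a cycle UMI. Free RNA held 4861 and 5174 CPM of the same genes, more than the members did. After the same reduction *Pcna* was detected in 22.3% (19.3 to 25.5) of Ctrl and 28.0% (23.0 to 33.5) of cKO members, against 30.9% and 38.5% before the reduction. *Ccnb1*, the mitotic cyclin, was detected in 7.28% (5.49 to 9.44) and 5.74% (3.38 to 9.04) after reduction, 10.4% and 7.89% before it, and in 39.6% and 40.3% of the reduced cells with a cycle UMI. Of the reduced members, 57 of 714 in Ctrl and 16 of 296 in cKO had fewer than 5 UMIs of each of these 2 lists, or 7.98% and 5.41%. The share was 32.9% and 29.2% in *Krt1*/*Krt10* cells, 9.53% and 5.80% in follicle cells and 0.822% and 0.371% in cells with a cycle UMI. Most *Krt1*/*Krt10* cells also reached this bound, so it does not mark cycling cells.

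**Figure D1:**
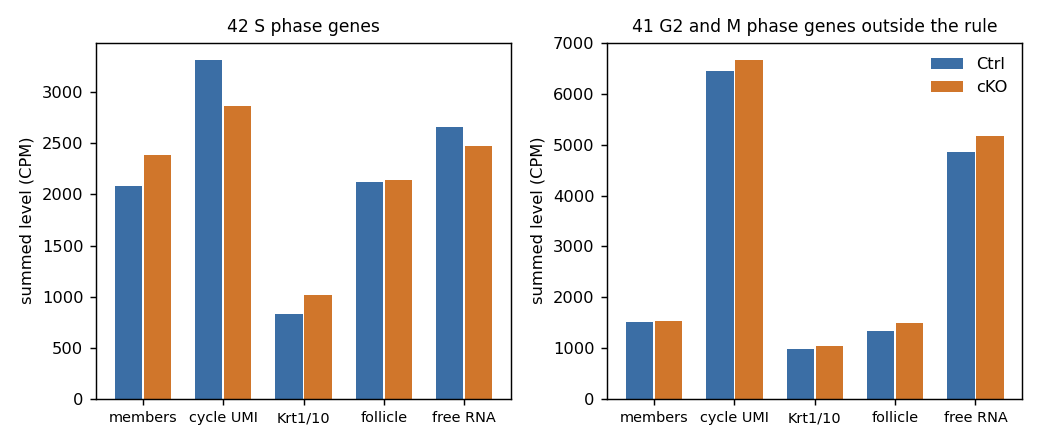
Summed level, in CPM of summed UMIs, of 42 S phase genes (left) and 41 G2 and M phase genes outside the rule (right) in members, basal cells with a cycle UMI, Krt1/Krt10 cells, follicle cells and free RNA, with Ctrl in blue and cKO in orange and each bar 1 library. Members lie at 2082 and 2382 CPM for S phase genes, between the cycle and Krt1/Krt10 sets, and at 1504 and 1536 CPM for G2 and M phase genes, far below the 6450 and 6676 CPM of the cycle set.

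The names basal and interfollicular fitted better, though the second follows in part from the rule. *Krt15*, a further basal keratin, and *Igfbp2*, a secreted binding protein for insulin-like growth factors, were not used by the rule. They were detected in 99.9% and 82.1% of Ctrl members and in 100% and 77.0% of cKO members. *Igfbp2* was about as frequent in basal cells with a cycle UMI (85.5% and 81.4%). It was less so in follicle cells (28.8% and 18.9%) and *Krt1*/*Krt10* cells (38.3% and 31.6%). *Krt15* was not confined to members. It had 18331 of 4014184 UMIs in Ctrl and 11354 of 3587517 in cKO follicle cells. In *Krt1*/*Krt10* cells it had 7439 of 1633438 and 2591 of 985227 UMIs, and in members 41597 of 5908329 and 11086 of 2426342. Scaled to these totals, *Krt15* was higher in members than in either set, but less than 2-fold. Across members it also went with the rule gene *Krt5* (Spearman's rho 0.48 and 0.40). The list of 19 follicle genes outside the rule summed to 395 CPM in Ctrl and 347 CPM in cKO members, against 1383 and 1331 CPM in follicle cells and 353 and 412 CPM in free RNA. Of 12 measured genes of this list 8 were at least 2-fold lower in members than in follicle cells in both libraries and none was higher, against 3.73% and 0.553% of all genes measured there. Members had to lack the follicle genes of the rule and follicle cells had to carry a UMI of them, so these values describe the rule. The 8 lists of markers of other cell types summed to between 0.412 and 37.1 CPM in members, apart from *Dcn*. The highest was the erythroid list given above, and the melanocyte list was at 1.52 CPM in Ctrl and 12.4 CPM in cKO. At least 2 markers of a list were held by 23 Ctrl and 5 cKO members for fibroblasts, by 15 and 2 for erythroid cells, by 3 and 0 for Merkel cells and by 0 and 2 for melanocytes. *Pdgfra*, *Ptprc*, *Kdr* and *Sox10* had no UMI in members of either library, and the exact interval allows up to 0.624 CPM in Ctrl and 1.52 CPM in cKO. Apart from *Dcn* the fibroblast markers summed to 5.75 CPM in Ctrl and 2.47 CPM in cKO members, against 22.3 and 24.4 CPM over all kept cells.

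The start sites of *Krt5* and *Igfbp2* are shown because the first gene chose the members and the second, which did not, set them apart from follicle cells. *Krt5* lies on the minus strand of chromosome 15 from 101707070 to 101712898, and *Igfbp2* on the plus strand of chromosome 1 from 72824503 to 72852474 (GRCm38). Each window runs from 120 bases before to 30 bases from the RefSeq start, at chr15:101712876-101713025 and chr1:72824360-72824509 on GRCm38.p6. Capitals mark the GC box, GGGCGG. The TATA box, TATAAA, and the AP-1 motif, TGANTCA, were searched as well, all on both strands, and none of the motifs overlapped.
Krt5: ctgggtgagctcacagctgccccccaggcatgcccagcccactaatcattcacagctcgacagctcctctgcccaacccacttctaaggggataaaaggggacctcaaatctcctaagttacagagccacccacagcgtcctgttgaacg
Igfbp2: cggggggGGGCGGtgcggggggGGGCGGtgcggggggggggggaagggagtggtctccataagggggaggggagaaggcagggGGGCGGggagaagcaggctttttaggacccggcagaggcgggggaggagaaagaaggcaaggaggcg
The *Igfbp2* window held 3 GC boxes and was 73.3% G or C, and the *Krt5* window held none of the 3 motifs and was 56.7% G or C. Among 32851 promoter windows of the same length, 29.1% held the GC box, 7.16% the TATA box and 4.16% the AP-1 motif. No measurement here bears on these sites.

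The members made up 16.4% (15.3 to 17.5) of kept cells in Ctrl and 8.50% (7.61 to 9.46) in cKO, a difference of -7.87 percentage points with a counting interval of -9.29 to -6.45. The threshold on *Krt5* and *Krt14* is fixed while their level was lower in cKO cells, which bears on this difference. In the first step it kept 2886 Ctrl and 1526 cKO cells. Then 2699 and 1431 were left after the limit on *Krt1* and *Krt10*, and 2221 and 1138 after that on follicle genes. Within these last cells the members were 32.8% (30.8 to 34.8) in Ctrl and 26.7% (24.2 to 29.4) in cKO. With the cKO minimum lowered to 47.6 per 10000, in proportion to the median of each library's kept cells, a choice made after the values were seen, 383 cKO cells qualified and the share was 10.7%. With every cell first reduced to 5500 UMIs the shares were 20.7% and 11.9%.

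The cKO members lay closer to the minimum than the Ctrl members did. The nearest values of *Krt5* plus *Krt14* were 80.17 inside and 79.88 outside in Ctrl, and 80.01 and 79.68 in cKO. There were 58 Ctrl and 61 cKO members under 100 per 10000, and 34 and 53 cells that failed only this step with at least 60. For *Krt1* plus *Krt10* the nearest values were 26.37 and 31.00 in Ctrl and 29.59 and 30.95 in cKO. The depth of the members was alike in the libraries, with medians of 7762 UMIs and 2254 genes in Ctrl and 7772 UMIs and 2259 genes in cKO. Cells with a cycle UMI were deeper, at 9976 and 9710 UMIs, and the rule of no cycle UMI is easier to meet with fewer UMIs. No barcode was shared by members of the 2 libraries.

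The 4 marker genes were high in members of both libraries. *Krt5* stood at 5416 CPM (95% exact Poisson interval 5357 to 5476) in Ctrl and 4224 CPM (4142 to 4306) in cKO members, and *Krt14* at 11321 CPM (11236 to 11408) and 9720 CPM (9597 to 9845). Both chose the members, so these levels are a description. *Krt15* (chromosome 11, 100131758 to 100135928) was at 7040 CPM (6973 to 7108) in Ctrl and 4569 CPM (4484 to 4655) in cKO. *Igfbp2* was at 395 CPM (379 to 411) and 365 CPM (341 to 390).

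Between single members the markers differed widely. *Krt15* ran from 0 to 252 per 10000 with a median of 61.3 in Ctrl, and from 1.00 to 165 with a median of 38.9 in cKO. *Igfbp2* ran from 0 to 21.9 with a median of 3.09 in Ctrl, and from 0 to 20.5 with a median of 2.59 in cKO. The ranges of the 2 libraries overlapped for both genes, and the *Krt15* quartiles were 38.9 and 91.0 in Ctrl against 21.6 and 61.7 in cKO.

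**Figure D2:**
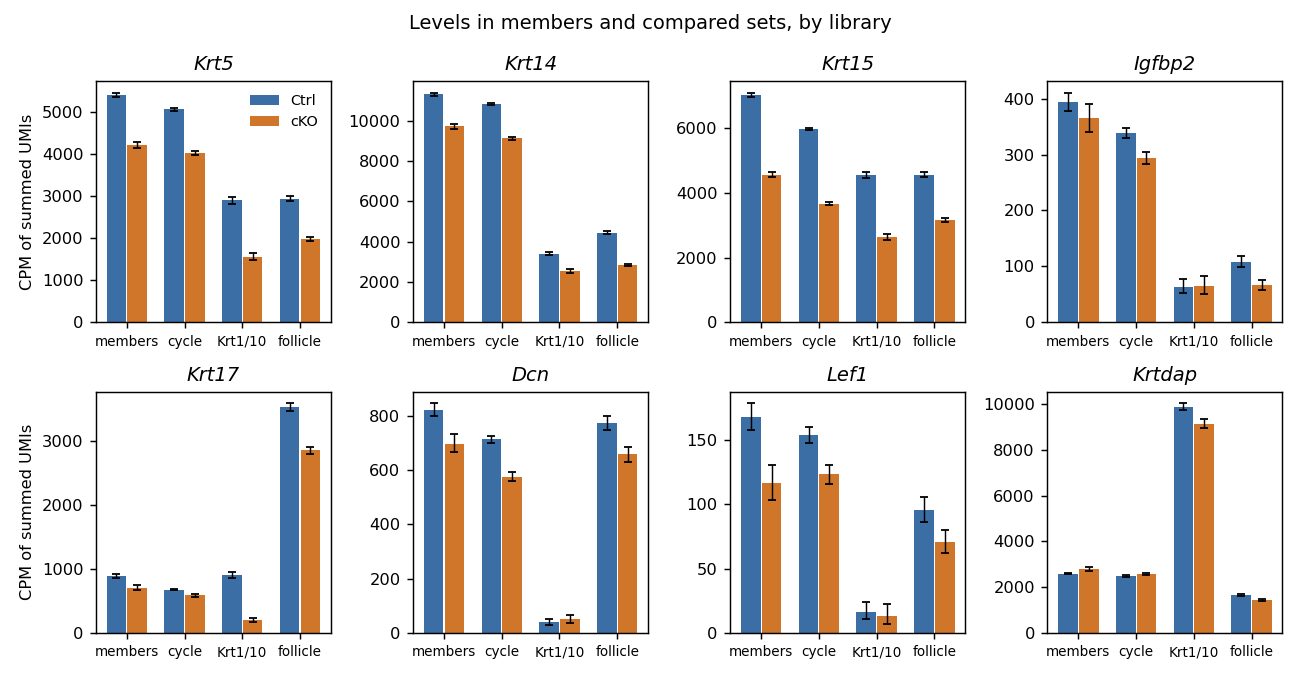
Levels of 8 genes in CPM of summed UMIs (linear axes from 0) in members, basal cells with a cycle UMI, non-cycling Krt1/Krt10 cells and non-cycling follicle cells, with Ctrl in blue, cKO in orange and bars for the 95% exact Poisson interval. Igfbp2 and Lef1 are highest in the members and the cycle set, Dcn is lowest in the Krt1/Krt10 cells, and Krt17 is highest in follicle cells in both libraries.

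Against non-cycling cells that had turned on *Krt1* and *Krt10* (149 in Ctrl, 95 in cKO), members had higher levels of hemidesmosome, laminin and WNT ligand genes. Of 3601 genes measured with at least 100 UMIs, 7.33% were at least 2-fold higher in members in both libraries and 4.53% at least 2-fold lower. *Dcn*, a small proteoglycan, was 21.4-fold (16.7 to 27.8) higher in Ctrl and 13.8-fold (10.4 to 18.6) higher in cKO. *Cxcl14*, an epithelial chemokine, was 14.8-fold (13.0 to 17.0) and 11.5-fold (9.48 to 14) higher. *Pdgfa*, which signals to fibroblasts, was 11.5-fold (8.74 to 15.4) and 13.2-fold (8.75 to 21.0) higher.

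Genes for attachment to the matrix shared this order, and those for attachment between cells did not. Of the hemidesmosome and integrin list 6 of 7 measured genes were at least 2-fold higher in members in both libraries and none was lower, and of the laminin and basement membrane list 5 of 8 were higher and none lower. Over all genes measured there 7.33% were higher and 4.53% lower. *Itga6*, the integrin subunit of hemidesmosomes, was at 125 CPM in Ctrl and 152 CPM in cKO members against 22.7 and 19.3 CPM in *Krt1*/*Krt10* cells. *Col17a1*, a hemidesmosomal collagen, was at 202 and 176 CPM against 42.9 and 32.5 CPM. Of 11 measured adherens junction and desmosome genes 2 were at least 2-fold higher in members and 5 at least 2-fold lower, and the list summed to 2953 and 2596 CPM in members against 7059 and 6292 CPM in *Krt1*/*Krt10* cells. *Dsp*, the desmosomal plakin, was at 248 and 249 CPM in members against 816 and 864 CPM, and *Cdh3*, P-cadherin, at 76.2 and 51.5 CPM against 7.35 and 16.2 CPM. *Sparc*, a matrix glycoprotein, was 14.9-fold (11.6 to 19.6) and 7.59-fold (5.94 to 9.84) higher. The sort used integrins, which can set part of these levels, and its part was not tested.

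WNT ligands were transcribed by the members themselves. *Wnt4* was at 334 CPM in Ctrl and 341 CPM in cKO members, *Wnt6* at 318 and 344 CPM, and *Wnt16* at 153 and 148 CPM. *Wnt6* was 9.79-fold (7.45 to 13.1) and 10.3-fold (7.25 to 15) higher in members than in *Krt1*/*Krt10* cells. *Lef1*, a transcription factor that acts with β-catenin, was 10.2-fold (6.95 to 15.5) and 8.84-fold (5.09 to 16.8) higher. In the list of WNT ligands and receptors 6 of 8 measured genes were at least 2-fold higher in members than in *Krt1*/*Krt10* cells in both libraries and none was lower. Other signalling lists had fewer measured genes, with 2 of 5 BMP and TGF-beta genes and 1 of 3 IGF genes higher and none lower, 1 of 2 EGF and FGF genes in each direction, and 2 of 4 NOTCH genes lower and none higher. Over all 3601 genes measured there 7.33% were higher and 4.53% lower, and lists of 2 to 5 genes are too short to be set against these shares.

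Among the other genes with the highest ratios, *Fst*, which encodes follistatin, an antagonist of activins, was 8.55-fold (6.51 to 11.5) higher in Ctrl and 8.28-fold (6.14 to 11.4) higher in cKO members. *Dlk2*, a NOTCH-related membrane protein, was 12.1-fold (6.71 to 24.4) and 13.7-fold (6.20 to 37.9) higher. *Ccnd2*, a D-type cyclin of the G1 phase, was at 1080 and 1077 CPM in members, 10.1-fold (8.72 to 11.9) and 7.74-fold (6.52 to 9.26) above the *Krt1*/*Krt10* cells. *Apoe*, a lipid carrier, was 7.51-fold (5.82 to 9.86) and 7.58-fold (5.39 to 11) higher. In the reverse direction *Cdkn1a*, the p21 inhibitor of cyclin-dependent kinases, was at 13.2 and 21.0 CPM in members and at 224 and 192 CPM in *Krt1*/*Krt10* cells.

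Genes of the differentiating layers lay the other way. Apart from *Krt1* and *Krt10*, which the rule used, *Tmem45a* was 137-fold lower in Ctrl and 134-fold lower in cKO members, *Elovl4*, which elongates very long chain fatty acids for the skin barrier, 108-fold and 180-fold, and *Ly6d* 99.3-fold and 53.0-fold. *Serpinb12*, *Lypd3*, *Ly6g6c*, *Fam25c* and *Npl* completed the 10 lowest genes. Of 8 early differentiation genes, 6 were at least 2-fold lower in members and none higher, against 4.53% and 7.33% of all genes measured there. These genes were not absent from members, since *Krtdap* was at 2593 and 2789 CPM and *Ly6d* at 53.5 and 88.2 CPM. Free RNA can add to such levels, and its part was not tested.

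Against non-cycling follicle cells (532 in Ctrl, 498 in cKO) the members stood out by few genes. Of 5602 measured genes 0.553% were at least 2-fold higher in members in both libraries and 3.73% at least 2-fold lower. *Serpinb10*, a serine protease inhibitor of the serpin family, led with 5.22-fold (4.51 to 6.08) in Ctrl and 5.84-fold (4.81 to 7.12) in cKO. *Igfbp2* followed at 3.64-fold (3.29 to 4.04) and 5.52-fold (4.78 to 6.4), and *Wnt16* at 3.33-fold (2.84 to 3.92) and 3.72-fold (3.06 to 4.55). *H19*, an imprinted noncoding RNA, was at 1163 and 1142 CPM in members against 427 and 329 CPM in follicle cells. *Aqp3*, the water and glycerol channel of the basal layer, was at 245 and 242 CPM against 93.9 and 69.1 CPM.

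Among the 10 highest genes 3 encode cystatin-type protease inhibitors. *Stfa3* was at 2226 CPM in Ctrl and 1320 CPM in cKO members against 716 and 281 CPM in follicle cells, *Stfa1* at 380 and 315 CPM against 129 and 49.9 CPM, and *Csta1* at 109 and 96.9 CPM against 41.6 and 25.4 CPM. The *Stfa* genes are near-identical copies, so reads may be split among them. *Anxa8* and *Rnase4* were the other 2 of the 10 highest genes. Within the insulin-like growth factor genes the pattern was not shared, as *Igfbp4* was at 42.1 and 51.1 CPM in members and 205 and 206 CPM in follicle cells.

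Among genes lower in members than in follicle cells, leaving out the 5 genes of the rule, *Tgfb2*, a ligand of the TGF-beta family, was 195-fold lower in Ctrl and 135-fold lower in cKO. *Pthlh*, a secreted peptide of the early follicle, was 84.1-fold and 47.2-fold lower. *Trps1*, a transcription factor of follicle formation, had 10 UMIs in Ctrl and 2 in cKO members, ratios of 0.0188 (0.00892 to 0.0349) and 0.0108 (0.0013 to 0.0392) to the follicle cells. *Bdnf*, a neurotrophin, had 1 UMI in Ctrl members and 0 in cKO members, against 55.3 and 82.2 CPM in follicle cells. *Krt17*, a keratin of follicles and of stressed epidermis, was at 886 and 705 CPM in members and 3524 and 2850 CPM in follicle cells. *Jun*, an AP-1 subunit, was at 249 and 267 CPM against 874 and 1025 CPM, and 8 of 17 immediate early and heat shock genes were at least 2-fold lower in members while none was higher. Over all genes measured there 3.73% were lower and 0.553% higher.

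Few genes were higher in members than in the basal cells with a cycle UMI (1493 in Ctrl, 834 in cKO). Of 7299 measured genes 0.0548% were at least 2-fold higher in members in both libraries, which is 4 genes, and 2.53% at least 2-fold lower. Of the G2 and M phase genes 38 of 40 measured were at least 2-fold lower in members, and of the S phase genes 11 of 40. *Plk1*, a mitotic kinase, was at 3.22 CPM in Ctrl and 2.06 CPM in cKO members against 64.4 and 61.4 CPM in the cycle set. *Ube2c*, which helps to degrade mitotic cyclins, was at 25.2 and 19 CPM against 462 and 475 CPM. Since members were chosen for the absence of 3 genes of this programme, these values describe the rule.

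Of the 4 genes higher in members than in the cycle set, 2 encode histones. *Hist1h2bc* was at 238 and 135 CPM in members and 87.8 and 47.1 CPM in the cycle set, and *Hist1h1c* at 157 and 55.2 CPM against 76.5 and 19.2 CPM. *Ahnak2* was 2.26-fold (1.96 to 2.6) and 2.24-fold (1.83 to 2.75) higher, and *Mxd4*, of the MAX dimerization family, 2.20-fold (1.86 to 2.62) and 2.21-fold (1.56 to 3.1). *Endou*, *Spint1*, a membrane inhibitor of proteases, *Ypel3* and *Agrp* lay between 1.54-fold and 1.87-fold in both libraries. Histone genes have near-identical copies, and poly(A) capture reads only part of their mRNA. No measured gene of the adhesion, WNT, NOTCH, IGF or basal keratin lists reached 2-fold in 1 direction in both libraries between members and the cycle set.

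Keratins, *Fos*, genes of the upper layers and abundant transcripts such as *Malat1* and *Actb* had the highest variance between members. The measure was the variance of each gene's counts around the value expected from the cell's UMIs, scaled so that counting error alone gives 1. For the same relative spread between cells it rises with a gene's level, so abundant genes rank high. Over 7519 genes detected in at least 5% of members of both libraries the median was 1.03 in Ctrl and 1.02 in cKO, and 108 genes, or 1.44%, reached 2 in both. *Krt15* had 21.0 in Ctrl and 17.5 in cKO, *Malat1* 21.2 and 17.4, *Stfa3* 15.8 and 16.1, and *Actb* 10.1 and 14.4. *Krt17* had 30.1 in Ctrl and 14 in cKO, and ranged from 0 to 176 per 10000 in Ctrl and from 0 to 93.1 in cKO with medians of 3.02 and 2.71. *Fos*, the AP-1 subunit, had 7.24 and 7.14.

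**Figure D3:**
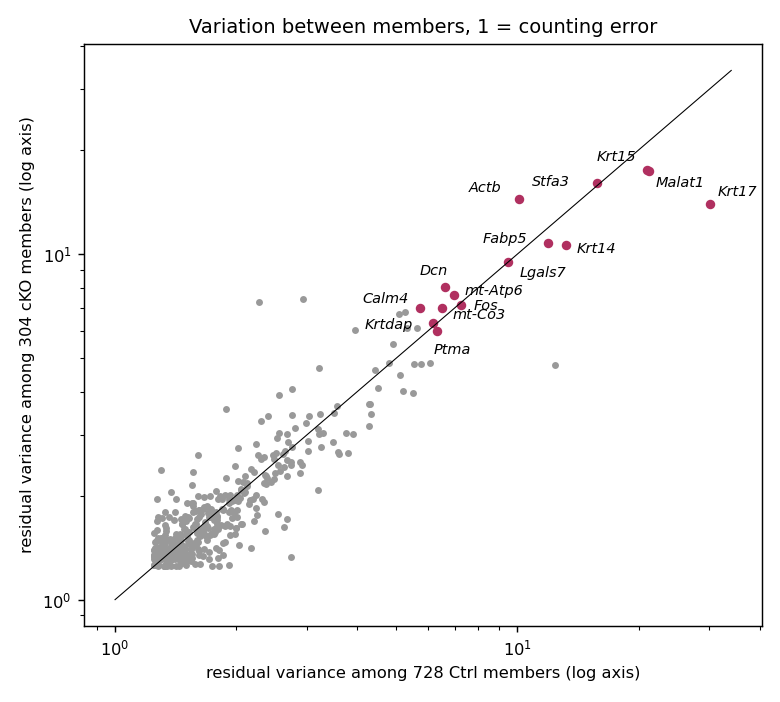
Residual variance (1 is counting error) among the 728 Ctrl members on the x axis and the 304 cKO members on the y axis, both log axes, for the 400 genes with the highest smaller value of the 2; the 15 leading genes are named and the line marks equality. Krt15 (21.0 and 17.5) and Stfa3 (15.8 and 16.1) lie near the line, and Krt17 (30.1 and 14) lies below it.

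Some of the variable genes went together. Spearman's rho was computed across members within each library over values per 10000, for 27 genes and the total UMIs, and 18 of 378 pairs reached 0.3 in size with the same sign in both. These values share each cell's depth and denominator. *Lgals7*, a galectin of stratified epithelium, went with *Krt15* (0.45 in Ctrl, 0.44 in cKO), *Stfa3* (0.43, 0.42), *Krtdap* (0.39, 0.42) and *Krt5* (0.39, 0.37). *Dcn* went against *Lgals7* (-0.48, -0.46), *Krt15* (-0.38, -0.34) and *Krtdap* (-0.33, -0.37).

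Further pairs lay beside these. *Krt5* went with *Krt14* (0.52 in Ctrl, 0.46 in cKO), both used by the rule, and with *Krt15* (0.48, 0.40). *Stfa3* went with *Stfa1* (0.55, 0.47) and *Krtdap* (0.46, 0.39). *Krtdap* went with *Stfa1* (0.39, 0.35) and against *Cxcl14* (-0.32, -0.30). *Fos* and *Jun* had 0.52 in Ctrl and 0.44 in cKO. *Ptma*, a chromatin-associated protein of growing cells, and *Hmgb2*, of the same kind, had 0.44 and 0.37. The mitochondrial transcripts *mt-Atp6* and *mt-Co3* had 0.73 and 0.76, and both were lower in cells of more UMIs, with -0.43 and -0.40 for *mt-Atp6* and the total. *Igfbp2* had no pair that reached 0.3 in both libraries, and its values with *Krt15* were 0.06 and 0.00.

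In members *Mettl3* itself was at 12.4 CPM (9.68 to 15.5), 73 UMIs, in Ctrl and 4.53 CPM (2.26 to 8.11), 11 UMIs, in cKO, a ratio of 0.367 (exact binomial interval 0.175 to 0.696). Its UMIs are 3′ tags and the floxed exon lies upstream of them, so this level is no measure of the deletion. Of 6238 genes with at least 100 UMIs in members, 311 were at least 1.5-fold higher in cKO (4.99%) and 204 at least 1.5-fold lower (3.27%), with a median log2 ratio of -0.01. The libraries also differed in transcripts of the sex chromosomes. *Xist*, the RNA of the inactive X, gave 8867 UMIs in Ctrl members and 0 in cKO members, and Y-linked genes were detected in 1 Ctrl member and 170 cKO members. Sex, embryo and genotype cannot be told apart here, and this holds also for *Eif2s3x* and *Erdr1*, which lie on these chromosomes and are among the 12 lowest genes.

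The highest ratio in cKO members was that of *Rpp25l*, a gene related to a subunit of RNase P. It had 270 UMIs in Ctrl and 415 in cKO, a ratio of 3.74 (3.20 to 4.38). *Nxt1*, a cofactor of mRNA export, had 441 and 529 UMIs and a ratio of 2.92 (2.57 to 3.32), and *Mrpl43*, of the mitochondrial ribosome, 536 and 614 UMIs and 2.79 (2.48 to 3.14). *Mterf4*, *Polr2l*, *Ndufaf1*, *Mrpl16*, *Lsm10* and *Wdr18* followed with ratios between 2.21 and 2.59. *Pelo*, which rescues stalled ribosomes, had 158 and 159 UMIs and a ratio of 2.45 (1.95 to 3.07).

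The values in other cells are given with intervals for 3 of these 12 genes. *Defb1*, an antimicrobial peptide, had a ratio of 2.29 (1.82 to 2.87) in members, 2.26 (2.01 to 2.55) in basal cells with a cycle UMI, 0.996 (0.786 to 1.26) in follicle cells and 1.04 (0.562 to 1.87) in *Krt1*/*Krt10* cells, where it had 32 and 20 UMIs. *Cyr61*, a target of YAP, had 2.21 (1.68 to 2.89) in members, 1.36 (1.21 to 1.54) in the cycle set, 1.48 (1.26 to 1.73) in follicle cells and 2.69 (1.04 to 7.5) in *Krt1*/*Krt10* cells. Its direction in members turned when those with an S phase UMI were left out, but only 168 Ctrl and 46 cKO members then remained. *Nxt1* in contrast had 2.92 (2.57 to 3.32), 2.77 (2.61 to 2.94), 2.90 (2.52 to 3.34) and 2.91 (2.33 to 3.66) in these 4 sets. The rest of the 12 genes were also at least 1.5-fold higher in cKO in each of the 4 sets. In the same order *Rpp25l* had 3.74, 3.18, 2.83 and 3.27, and *Wdr18* 2.21, 1.68, 1.83 and 1.59. The difference between sets was not tested, since each set has 1 library per genotype.

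Of the 11 lowest genes in cKO members besides *Xist*, 2 encode histones. *Hist3h2a* had 298 UMIs in Ctrl and 38 in cKO, 3.22-fold lower (2.29 to 4.64), and *Hist1h1c* 926 and 134, 2.84-fold lower (2.37 to 3.43). *Cdkn1c*, the imprinted p57 inhibitor of cyclin-dependent kinases, was at 220 CPM in Ctrl and 117 CPM in cKO, 1.88-fold lower (1.65 to 2.14), and its ratio was 0.484 (0.452 to 0.517) in the cycle set and 0.425 (0.356 to 0.505) in follicle cells. *Cygb*, a globin, and *Rgs2*, a regulator of G protein signals, were 2.41-fold (1.98 to 2.94) and 2.40-fold (1.92 to 3.02) lower in members, with ratios of 0.836 (0.698 to 1.00) and 0.766 (0.669 to 0.877) in follicle cells. *Mbd2*, which binds methylated DNA, was 2.41-fold lower (1.85 to 3.20), and *Ptges*, a prostaglandin E synthase, 2.04-fold lower (1.48 to 2.87).

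**Figure D4:**
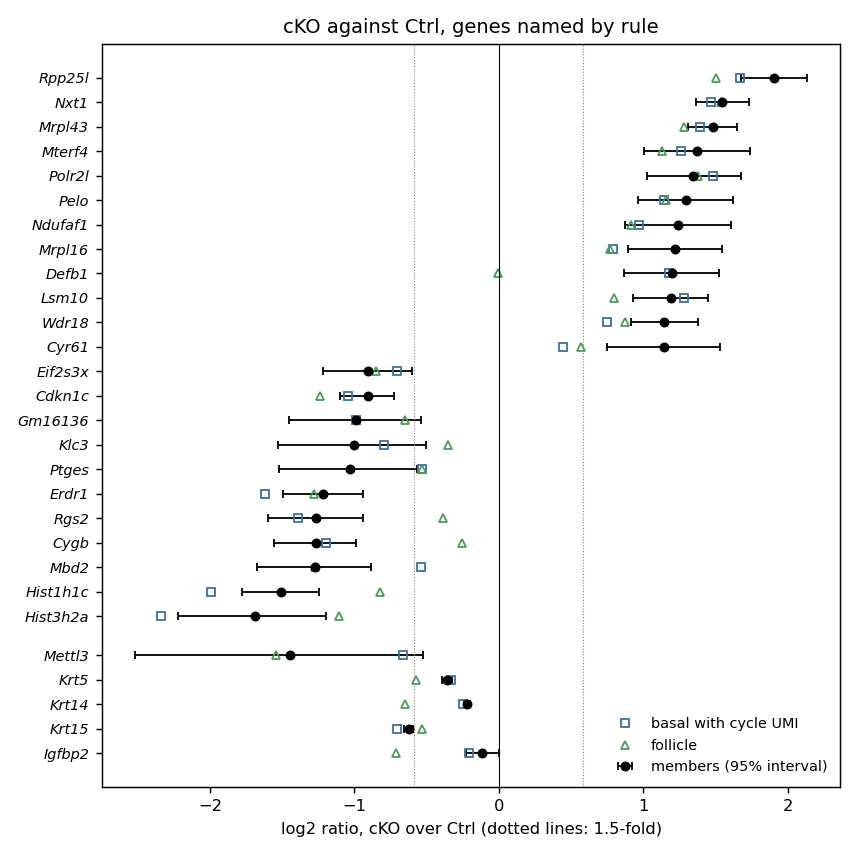
Log2 ratio of cKO to Ctrl for the 12 highest and the 12 lowest genes by the rule, without Xist, and below them Mettl3 and the 4 markers; black points are members with their 95% exact interval, blue squares the basal cells with a cycle UMI, green triangles follicle cells, and dotted lines 1.5-fold. Rpp25l is highest in members at 1.90, Hist3h2a lowest at -1.69, and Defb1 is near 0 in follicle cells.

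The basal keratins were lower in cKO members, though all members had to pass the same minimum. The ratio was 0.780 (0.763 to 0.797) for *Krt5*, 0.859 (0.846 to 0.871) for *Krt14* and 0.649 (0.635 to 0.663) for *Krt15*, and *Krt15* alone of the 3 passed 1.5-fold. On the log2 scale these were -0.36, -0.22 and -0.62, and they became -0.49, -0.38 and -0.70 with the cKO minimum set in proportion. *Igfbp2* had a ratio of 0.924 (0.854 to 0.999).

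Genes of adhesion and of the matrix were close to the median of all genes. In the hemidesmosome and integrin list none of 8 measured genes passed 1.5-fold in either direction, and the median log2 ratio was -0.10. In the laminin and basement membrane list only *Frem2*, a basement membrane protein, did, among 17, at -0.66, and the median was -0.09. *Itga6* was at 0.28 and *Itgb1*, the common β1 integrin subunit, at -0.37. None of 12 adherens junction and desmosome genes passed, with *Cdh3* the lowest at -0.56. Of all measured genes 4.99% passed upwards and 3.27% downwards.

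Among signalling genes, 1 of 4 WNT effectors and inhibitors passed 1.5-fold, *Axin2*, a feedback target of the pathway, at 14.7 CPM in Ctrl and 9.48 CPM in cKO members. Its interval (0.388 to 1.03) included equality. *Lef1* was at 168 CPM (158 to 179) in Ctrl and 117 CPM (103 to 131) in cKO, a ratio of 0.694 (0.606 to 0.793). None of the 12 WNT ligands and receptors passed, and *Wnt10a* had the highest ratio of cKO to Ctrl, with levels of 90.4 and 133 CPM. *Bmp2*, a BMP ligand, was the only one of 12 BMP and TGF-beta genes past 1.5-fold, at 38.8 and 25.6 CPM. None of 7 IGF axis and none of 5 EGF and FGF genes did. The shares of all measured genes past 1.5-fold were 4.99% higher and 3.27% lower, which such short lists cannot be set apart from.

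The median log2 ratio was 0.35 for the early differentiation list, against -0.01 for all genes. *Ly6d* was at 53.5 CPM in Ctrl and 88.2 CPM in cKO and *Sfn*, the 14-3-3σ protein of keratinocytes, at 1177 and 1837 CPM, and these 2 of 8 early differentiation genes passed 1.5-fold while none was that much lower. *Fabp5*, a fatty acid carrier, lay the other way at 3082 and 2198 CPM. Of 31 S phase genes *Fen1*, *Gins2* and *Chaf1b* passed and none was that much lower, with a median log2 ratio of 0.23. Of 19 G2 and M phase genes *Birc5* was higher and *Ccnb1*, *Ccnb2*, *Cdca3* and *Cdca8* lower by 1.5-fold, with a median of -0.07, and *Ccnb1* turned to a log2 ratio of 0.09 when the rule was applied to cells reduced to 5500 UMIs. Of 14 G1 regulators *Cdkn1a* was higher, at 13.2 and 21.0 CPM, and *Cdkn1c* lower. Over all measured genes 4.99% were at least 1.5-fold higher and 3.27% at least 1.5-fold lower.

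In the m6A list 2 of 16 measured genes were at least 1.5-fold higher and none that much lower, in the MYC family 1 of 5 in each direction and among translation initiation factors 1 of 32 in each direction, against 4.99% higher and 3.27% lower of all genes. *Rbm15*, an adaptor of the methyltransferase complex, was at 7.62 CPM in Ctrl and 27.6 CPM in cKO members, a ratio of 3.63 (2.45 to 5.41). *Ythdf2*, a cytoplasmic m6A reader, was at 79.9 and 121 CPM, and the other 14 of 16 measured m6A genes were within 1.5-fold. *Mettl3* had too few UMIs to be counted among the 16. *Bmyc* was at 55.2 and 92.3 CPM and *Mxd4* at 42.1 and 23.5 CPM. Of 32 translation initiation factors *Eif1a* was higher, at 74.5 and 145 CPM, and the X-linked *Eif2s3x* lower, at 84.8 and 45.3 CPM. *Cebpb*, a transcription factor of keratinocyte differentiation, was at 75.5 and 123 CPM, the only one of 16 epidermal transcription factors past 1.5-fold.

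Genes higher in cKO members had few coding exons. The number of coding exons, taken from the GENCODE transcript with the most, was known for 98.8% of measured genes, and its median was 8 over all of them, 4 over the 311 higher genes and 11 over the 204 lower genes. Of genes with a single coding exon 22.8% (60 of 263) were at least 1.5-fold higher in cKO, of those with 2 exons 17.8% (43 of 241), and of those with 3 to 4 exons 10.4% (90 of 866). For 5 to 9 exons it was 3.33% (71 of 2131) and for 10 or more 1.58% (42 of 2663), against 4.99% of all genes measured. The median log2 ratio went from 0.28 for 1 exon to -0.08 for 10 or more.

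The order was the same among more abundant genes. Among genes with at least 400 UMIs the higher share was 18.4% for 1 exon, 13.3% for 2, 7.23% for 3 to 4, 1.72% for 5 to 9 and 0.405% for 10 or more. For genes at least 1.5-fold lower in cKO the shares at 400 UMIs were 1.94%, 0%, 1.28%, 1.08% and 1.89%, which are 2, 0, 6, 10 and 14 genes. At 100 UMIs they were 3.42%, 1.66%, 1.96%, 2.53% and 4.28%, and the first was 1.97% without histone genes. Among the 12 highest genes *Rpp25l*, *Nxt1* and *Lsm10* have 1 coding exon, *Pelo*, *Polr2l* and *Defb1* have 2, *Mrpl43* has 3, *Mterf4*, *Ndufaf1* and *Mrpl16* have 4, *Cyr61* has 5 and *Wdr18* has 10. Among the lowest genes *Hist3h2a* and *Hist1h1c* have 1 and *Klc3* and *Eif2s3x* have 12. In the same libraries genes with 1 or 2 coding exons were at least 1.5-fold higher in cKO in 20.4% of cases in members, 22.4% in basal cells with a cycle UMI, 15.6% in follicle cells and 21.2% in *Krt1*/*Krt10* cells.

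**Figure D5:**
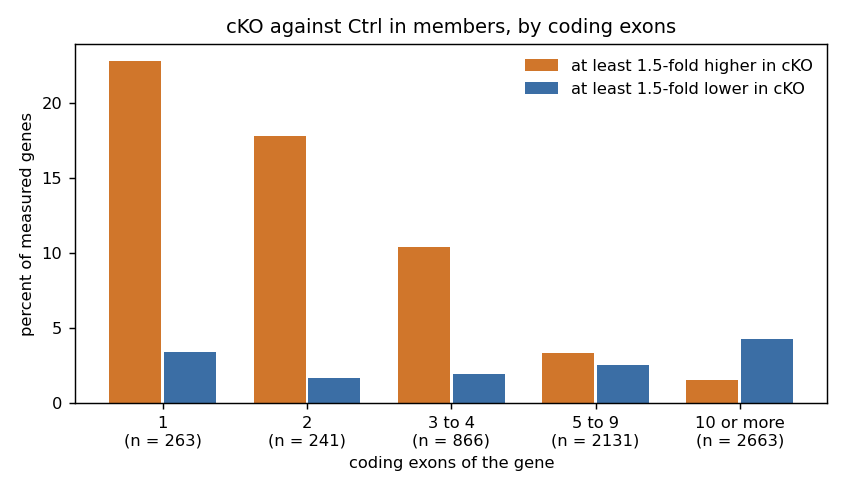
Percent of measured genes at least 1.5-fold higher (orange) or lower (blue) in cKO than in Ctrl members, by the number of coding exons, with the number of genes under each pair of bars. The higher share goes from 22.8% for 1 exon to 1.58% for 10 or more, and the lower share stays between 1.66% and 4.28%.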

How the data were processed

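Single-cell RNA was measured in 2 libraries, 1 control and 1 *Mettl3* cKO, of 59664869 and 49755010 UMIs. The deposited files hold UMI counts of the authors, per gene and barcode, from Cell Ranger (2.0 in the submitters' processing notes) on mm10. Members and gene lists were chosen with earlier results of these data known. UMIs were summed over cells and given as CPM with exact Poisson intervals, and ratios have exact binomial intervals (Python 3.11.15, scipy 1.17.1). A gene was measured at 100 UMIs over both libraries and past the rule of size at 1.5-fold (genotypes) or 2-fold in both libraries (cell sets). A count of 0 was set to 3 in ratios. Named genes are the markers, *Mettl3*, the 12 highest and 12 lowest genotype ratios and the 10 highest and 10 lowest per set (at least 200 UMIs), the 15 most variable genes, and for each list the highest level and the extreme ratios. Other genes were named after their values were seen. Genes correlated besides the 15 were also so chosen. Shares of cells were compared after thinning to 5500 UMIs, leaving out 14 Ctrl and 8 cKO members. Scrublet (scanpy 1.11.5) called 0.135% and 0.0839% of cells doublets and no member, too few to be relied on, so doublets were kept. Positions and coding exons came from the GENCODE annotation of GRCm38, which matched 27645 of 27998 genes, and promoter sequences from RefSeq. The interval of the difference in share is a normal approximation. Alternatives changed the thresholds of the rule, the scaling, the UMI minimum and the treatment of free RNA, doublets and mitochondrial cells, and 1 used TMM of edgeR 4.0.16. The steps were tested on simulated data.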

Additional observations from a re-analysis of the deposited data

How the results depend on the processing

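No paired analysis was possible because each genotype is 1 library, and for the same reason no replicate could be left out. The difference in share was -7.87 points and kept its sign in all 11 alternatives. It was -4.19 with at least 2500 genes, -2.49 without members that had a UMI of *Pcna*, *Mcm5*, *Rrm2*, *Tyms* or *Hells*, and -5.66 with the cKO minimum scaled, which was chosen after seeing the data. Genes past 1.5-fold numbered 311 higher and 204 lower. There were 111 lower with at least 2500 genes, where fewer cells left 3113 genes measured. Without the S phase UMIs there were 84 higher and 96 lower of 1853 genes, and with 20 UMIs as the minimum 890 higher and 732 lower of 9819. The other settings stayed within 1.5 times, and TMM gave 275 and 233. Of 43 named genes past 1.5-fold 41 kept their direction in all 16 settings and 31 their size. *Ccnb1* turned to 0.09 (log2) when the rule was applied at 5500 UMIs. *Cyr61* turned to -1.03 without the S phase UMIs, with 168 Ctrl and 46 cKO members left. The cause was not tested for either gene. Depth limits *Mettl3*, with 11 UMIs in cKO members.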

Other observations

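None of 8 measured NOTCH genes passed 1.5-fold in members, with *Notch1* at 80.1 CPM in Ctrl and 80.8 CPM in cKO and *Hes1*, a target of the pathway, at 35 and 49.5 CPM. *Hes1* was at 99.2 and 107 CPM in *Krt1*/*Krt10* cells and *Dll1*, a NOTCH ligand, at 29.1 and 27.2 CPM in members against 1.84 and 2.03 CPM there. Of 17 immediate early and heat shock genes *Hspa1a*, a chaperone with 1 coding exon, was the only one past 1.5-fold, at 39.3 and 63.1 CPM. *Egr1* was at 94.1 and 65.5 CPM. Over all measured genes 4.99% were higher and 3.27% lower by 1.5-fold.

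*Postn*, a matrix protein, was at 276 CPM in Ctrl and 188 CPM in cKO members, and *Wnt3a* at 22.8 and 23.9 CPM against 5.23 and 3.62 CPM in follicle cells. *Krt17* was at 903 CPM in Ctrl and 195 CPM in cKO *Krt1*/*Krt10* cells, a wider gap than the 886 and 705 CPM in members, and the difference was not tested.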
